A study of Rattus norvegicus with 6 samples.

Results

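The genes described here are 43 transcripts typical of macrophages and other myeloid white cells, followed in rat heart after repeated doxorubicin. They were chosen by symbol from a fixed list, and 41 of the 43 symbols had a row in a table of 17487 gene symbols. Timd4 and Stab1 had no row under those symbols and were not analysed here. Hearts came from 6 adult male Wistar rats. In the doxorubicin group (n = 3), each rat was injected through the tail vein with 3.75 mg/kg doxorubicin hydrochloride, an anthracycline cancer drug that damages the heart, once a week over 4 weeks. In the control group (n = 3), each rat was given the vehicle, 0.9% sodium chloride, on that schedule. Each library is 1 rat, and the labels give neither the chamber of the heart nor the time from the last injection. Tnnt2, the cardiac troponin T gene that marks heart muscle, was at 15378 to 17860 CPM in the 6 libraries. CPM is a gene's count relative to the total of its library after TMM scaling, which sets the libraries to a common composition.

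Macrophages are the most numerous white cells of the healthy heart. They clear dying cells and debris, take up iron and lipid, and can be renewed locally or from blood monocytes. The growth factor receptor encoded by Csf1r and the transcription factor PU.1, encoded by Spi1, maintain the lineage. Resident-type cells are commonly recognised by the scavenger and lectin receptors of Cd163, Mrc1, Lyve1 and Timd4. Superoxide is made by the phagocyte oxidase, whose membrane part comes from Cybb and Cyba and whose cytosolic parts include the products of Ncf1 and Rac2. In whole tissue, fewer cells of a type and less of a transcript per cell cannot be told apart.

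The libraries held 2219685 to 3508282 counts, so the smallest level treated as detectable, 3 counts, was 0.852 to 1.33 CPM. Myeloid transcripts were scarce at this depth: the highest count of any member in any library was 722, for Lyz2, and 12 of the 32 members that could be tested stayed under 50 counts in each library. Ptprc, which encodes the pan-leukocyte phosphatase CD45, and Cybb, the catalytic oxidase subunit, were listed at 0 in all 6 libraries. Ptprc stood on 5 rows of the table. Among symbols on several rows 48.6% were at 0 in all libraries, against 24.5% of symbols on 1 row. The remaining 39 members had counts, and 7 of them (Cx3cr1, Ms4a7, Msr1, Siglec1, Trem2, Fcgr2b and Tlr2) were removed by the filter on low counts.

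Library control 1 stood apart from the others on the first principal component of all tested genes, which carried 38.4% of the variance (-43.3, against -4.83 to 26.6 for the other 5). Fold changes of members that moved by over 1.5 times when it was left out are given both ways, with the gene or where the libraries are compared. For genes that are not members, fold changes without it are not given.

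No member passed the adjusted threshold of 0.05 in edgeR's quasi-likelihood test, in which 0.0543% of 9205 tested genes passed, 0.0217% higher and 0.0326% lower. The smallest adjusted p of a member was 0.188, for Itgb2. At an unadjusted p under 0.05 there were 7 of the 32 tested members (21.9%), and all 7 were higher in doxorubicin hearts, with 0 lower. The share of all tested genes that were higher at that p was 4.00% and the share that were lower 4.11%, 8.10% in all. These 7 were Itgb2, Lyz2, Gpnmb, Lyve1, Lgals3, Cd163 and Mrc1. Without control library 1, Cd163 and Mrc1 no longer reached that p and the other 5 did. Values of the 3 doxorubicin hearts lay above those of the 3 control hearts for 7 tested members (Itgb2, Lyz2, Gpnmb, Lyve1, Lgals3, Mrc1 and Cd44), against 6.39% of all tested genes. Ncf1 alone lay below, against 7.06%. Together these are 8 of 32 members without overlap, where 13.4% of all tested genes had none. The log2 fold change was above 0 for 24 of the 32 tested members, against 52.1% of all tested genes, and its median was 0.26 against 0.02. Among all 39 members with counts, fitted without the filter, 29 were above 0 and 10 below, where 53.9% of all 13050 genes were above 0. The median of the tested members was 0.10 without doxorubicin library 2.

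**Figure D1:**
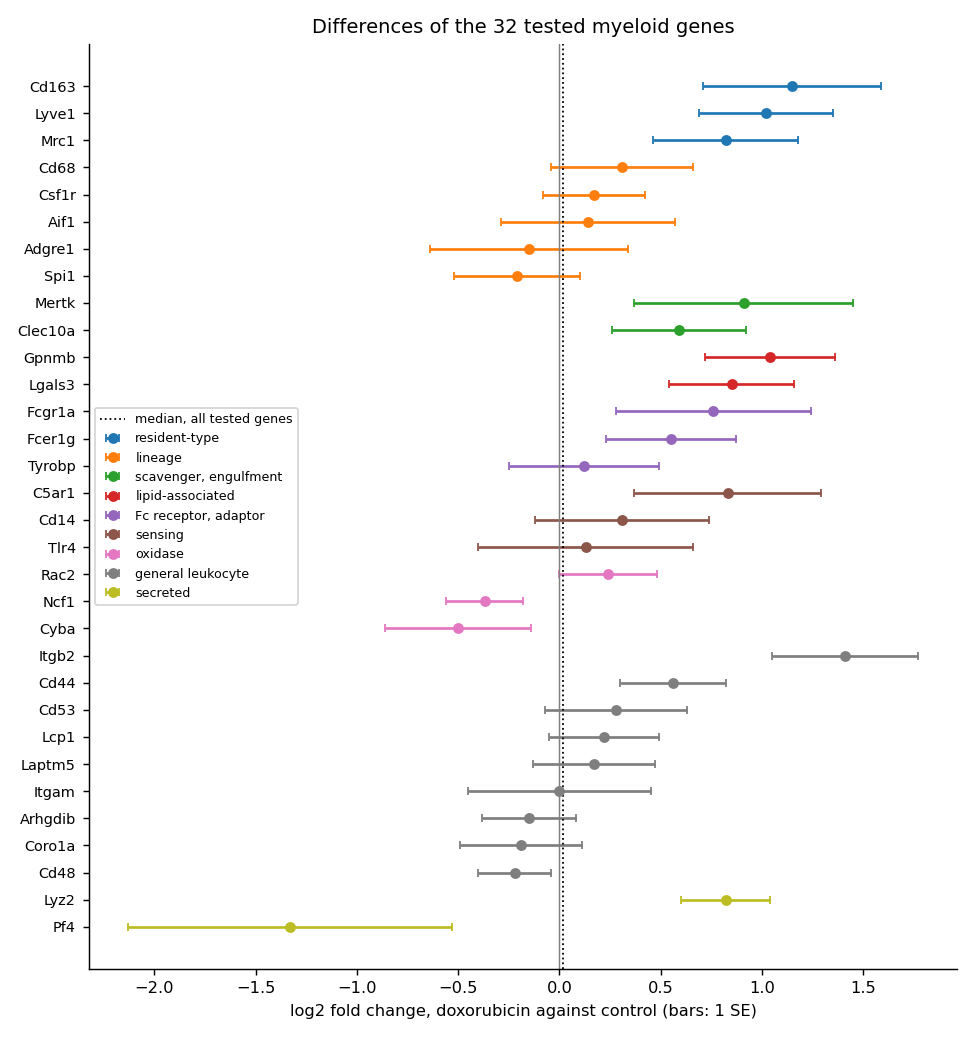
Log2 fold change of doxorubicin against control hearts (horizontal axis, bars 1 SE, 3 rats per group) for the 32 tested members, coloured by role. The dotted line is the median of all tested genes, 0.02. Resident-type and lipid-associated genes lie between 0.82 and 1.15, lineage genes between -0.21 and 0.31, and Pf4 at -1.33.

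Upstream sequences are shown for 3 of the 7 members because PU.1 is itself a member and binds purine-rich sites whose core is GAGGAA. RefSeq windows (build GRCr8) ending at the base before the annotated start, 250 bases long, were matched by symbol for 27 of the 43 members. Those not matched were Siglec1, Aif1, Msr1, Itgb2, Spi1, Fcgr1a, Lgals3, Lcp1, Clec10a, Tyrobp, Fcgr2b, Rac2, Pf4, C5ar1, Arhgdib and Fcer1g. GAGGAA, searched on both strands, was found in 15 of the 27 (55.6%) and in 23.2% of 27457 windows of that length. The longer form GAGGAAGT, which contains it, was found in Cd53 only among the members (3.70%), against 2.04% of all windows. TGACTCA, the AP-1 motif, does not overlap the other motifs and was found in Gpnmb and Cd68 (7.41%), against 3.98%. These are letter matches, not measured binding sites. Capitals below mark the matches to the PU.1 core and to the AP-1 motif, read on either strand.
Gpnmb upstream, chr4:79340878-79341127, plus strand: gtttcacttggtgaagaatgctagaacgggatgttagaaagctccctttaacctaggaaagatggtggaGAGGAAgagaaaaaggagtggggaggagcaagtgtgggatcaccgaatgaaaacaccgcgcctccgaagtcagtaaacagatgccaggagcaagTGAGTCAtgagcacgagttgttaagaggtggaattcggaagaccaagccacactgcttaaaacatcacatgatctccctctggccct
Lyz2 upstream, chr7:54798012-54798261, minus strand: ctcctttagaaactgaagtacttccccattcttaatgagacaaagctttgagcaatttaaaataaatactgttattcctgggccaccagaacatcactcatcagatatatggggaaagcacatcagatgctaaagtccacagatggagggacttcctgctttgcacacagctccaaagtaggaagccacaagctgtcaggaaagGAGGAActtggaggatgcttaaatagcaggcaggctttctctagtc
Mrc1 upstream, chr17:82157475-82157724, plus strand: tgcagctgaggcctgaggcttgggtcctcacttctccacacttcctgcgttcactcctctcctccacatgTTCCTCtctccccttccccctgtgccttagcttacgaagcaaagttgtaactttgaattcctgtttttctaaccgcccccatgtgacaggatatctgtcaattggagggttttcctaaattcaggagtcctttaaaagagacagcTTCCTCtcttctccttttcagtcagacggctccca
Matches begin 181 bases (PU.1 core) and 87 bases (AP-1 motif, reverse strand) before the start in Gpnmb, 46 bases before it in Lyz2, and 180 and 35 bases before it in Mrc1, both reverse. The windows of Lyve1 and Cd163 held none of these letters, and those of Ptprc and Cybb, which had no counts, held GAGGAA.

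The resident-type genes were higher in doxorubicin hearts as a group of 3 measured genes, each at an unadjusted p under 0.05 and none past the adjusted threshold. Without control library 1 Lyve1 alone of the 3 reached that p, and the median log2 fold change of the 3 was 0.74 against 1.02. Lyve1, which encodes a hyaluronan receptor, was at 4.96, 12.4 and 9.94 CPM in control libraries 1, 2 and 3 and at 19.3, 16.8 and 19.2 CPM in doxorubicin libraries 1, 2 and 3. The groups did not overlap, and control library 1 was the lowest. Its log2 fold change was 1.02 (SE 0.33, edgeR adjusted p 0.378), and 0.74 without control library 1. Mrc1, the mannose receptor gene, was at 5.73, 19.1 and 21.9 CPM in control and 24.4, 30.3 and 28.3 CPM in doxorubicin libraries. All 3 doxorubicin values were higher, although control libraries 2 and 3 came close to them. The log2 fold change was 0.82 (SE 0.36, edgeR adjusted p 0.586), and 0.43 without control library 1. Cd163 encodes the receptor that takes up hemoglobin bound to haptoglobin. It was at 3.05, 9.77 and 4.83 CPM in control and 16.7, 8.11 and 13.6 CPM in doxorubicin libraries. Here the groups overlapped, since doxorubicin library 2 lay below control library 2. For this gene the log2 fold change was 1.15 (SE 0.44, edgeR adjusted p 0.491), and 0.86 without control library 1. Folr2, the folate receptor gene of resident-type macrophages and no member, was looked up after these values were seen and was at 0.08 (SE 0.44, edgeR adjusted p 0.977).

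Lyve1 and Mrc1 are also transcribed in lymphatic endothelium. Of 6 lymphatic markers 5 were in the table and none of these was at 0, and their summed level was 80.9 to 86.7 CPM in control and 60.8 to 77.0 CPM in doxorubicin libraries. Prox1, a transcription factor gene used as a marker of that endothelium, was at 8.78, 11.6 and 12.2 CPM in control and 9.63, 8.11 and 20.6 CPM in doxorubicin libraries. Whether other heart cells carried it was not tested. Ccl21, a chemokine gene, made up most of that sum in control, at 50.8, 48.0 and 47.4 CPM in control and 43.0, 29.0 and 24.8 CPM in doxorubicin libraries. Without it, a choice made after the values were seen, the sum was 35.9, 32.9 and 36.9 CPM in control and 34.0, 31.8 and 47.7 CPM in doxorubicin libraries, which overlapped. Pdpn, the podoplanin gene, was higher in each doxorubicin heart (10.3, 8.44 and 10.2 against 14.8, 10.9 and 15.3 CPM). Flt4 and Reln overlapped, with log2 fold changes of -0.20 (SE 0.42) and -0.54 (SE 0.40). The lymphatic markers therefore differed in direction, and their part in Lyve1 and Mrc1 was not tested. Lyve1 counts per Prox1 count were 0.565, 1.08 and 0.814 in control and 2.00, 2.08 and 0.929 in doxorubicin libraries, which overlapped.

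**Figure D2:**
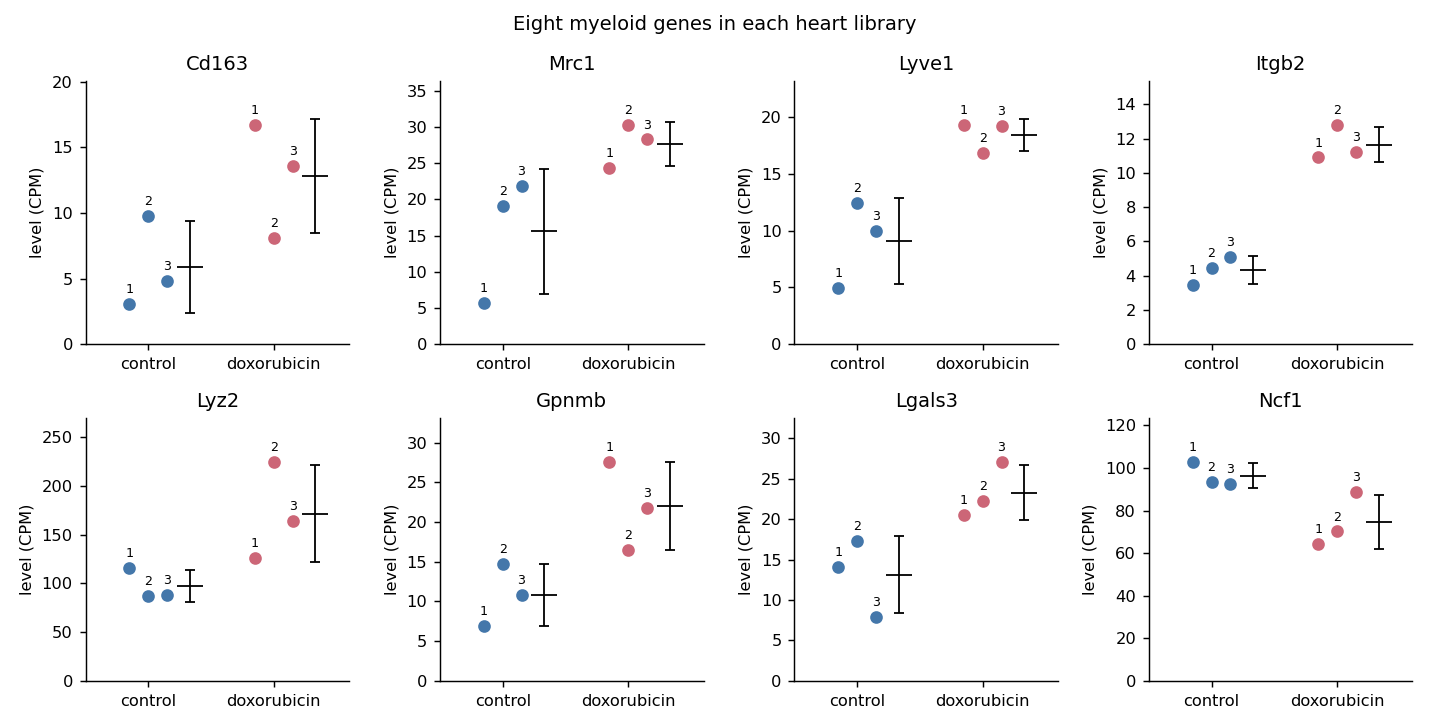
Level in CPM (vertical axis) of 8 members in each library (points numbered by rat within the group), with the mean and SD of 3 rats beside them. Itgb2 lies at 3.44 to 5.11 CPM in control and 10.9 to 12.8 CPM in doxorubicin libraries, and Ncf1 is the only panel in which doxorubicin lies below control.

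Gpnmb and Lgals3, the 2 tested members associated with lipid-laden macrophages, were both higher in doxorubicin hearts. Gpnmb encodes a glycoprotein of lysosome-rich macrophages. Its level was 6.87, 14.7 and 10.8 CPM in control and 27.6, 16.5 and 21.8 CPM in doxorubicin libraries. The groups did not overlap, and doxorubicin library 2 was nearest to control. Its log2 fold change was 1.04 (SE 0.32, edgeR adjusted p 0.360). Lgals3, which encodes galectin-3, a sugar-binding protein secreted by activated macrophages, was at 14.1, 17.3 and 7.95 CPM in control and 20.5, 22.2 and 27.1 CPM in doxorubicin libraries. Its groups did not overlap either, and the log2 fold change was 0.85 (SE 0.31, edgeR adjusted p 0.451). Other lipid-handling genes, looked up after these values were seen, were at 0.09 for Lpl (SE 0.24), 0.04 for Cd9 (SE 0.19) and -0.26 for Fabp5 (SE 0.23). Lpl was at 1960 to 3920 CPM, and which cells its reads came from was not tested. Apoe, a lipid carrier gene that stood on 5 rows of the table as Ptprc did, had 2 counts or fewer in each library. Spp1, the osteopontin gene described below, was at 2.14 (SE 0.50) without overlap. Trem2, a lipid-sensing receptor gene, was below the filter, with 0, 6 and 2 counts in control and 7, 7 and 8 counts in doxorubicin libraries. Its scaled values overlapped, since control library 2 was the highest, at 2.67 CPM against 2.18 to 2.36 CPM in doxorubicin libraries. Fibroblasts and stressed muscle cells can also make Gpnmb and Lgals3. A list of 10 fibroblast markers, none at 0, summed to 6070 to 6490 CPM in control and 5470 to 7960 CPM in doxorubicin libraries. The highest sum was in doxorubicin library 2, and Gsn made up most of each sum. Of the 10 markers 6 had log2 fold changes above 0 and 4 below. Postn had the smallest p of the list, with overlapping groups (log2 fold change 1.27, SE 0.45, edgeR adjusted p 0.443). The part of fibroblasts in these results was not tested.

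Itgb2, the beta-2 integrin chain CD18 that white cells use to leave the blood, had the largest log2 fold change of the tested members, 1.41 (SE 0.36, edgeR adjusted p 0.188). Its level was 3.44, 4.44 and 5.11 CPM in control and 10.9, 12.8 and 11.2 CPM in doxorubicin libraries, from 9, 10 and 18 counts and 34, 41 and 38 counts. The groups were far apart relative to their spread, at 4.33 ± 0.843 and 11.6 ± 1.01 CPM (SD, n = 3). In the fits that left out 1 library the log2 fold change stayed between 1.27 and 1.56. CD18 pairs with an alpha chain. Itgam, which encodes the myeloid alpha chain CD11b, was at 3.44, 4.00 and 3.41 CPM in control and 2.25, 4.99 and 3.54 CPM in doxorubicin libraries, with an SE of 0.45 around a log2 fold change that rounds to 0.00. Itgb2 counts per Itgam count were 1.2 ± 0.263 in control and 3.53 ± 1.19 in doxorubicin hearts (SD, n = 3), without overlap. Other alpha chains were looked up after these values were seen. Itgal, the chain carried widely on lymphocytes, was at 20.6, 20.0 and 25.8 CPM in control and 15.4, 12.5 and 13.9 CPM in doxorubicin libraries (log2 fold change -0.68, SE 0.26, edgeR adjusted p 0.496). Itgad had 5, 6 and 6 counts in control and 18, 9 and 10 counts in doxorubicin libraries. An annotated noncoding gene, LOC120099012, overlaps Itgb2 in the GRCr8 gene list, and whether the counting used strand is not given in the sources used here.

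Lyz2, the lysozyme gene of macrophages and neutrophils, was the most heavily counted member. It was at 116, 87.5 and 88.3 CPM in control and 126, 225 and 164 CPM in doxorubicin libraries. The groups did not overlap, but control library 1 and doxorubicin library 1 were neighbours. The means were 97.3 ± 16.3 and 172 ± 50.3 CPM (SD, n = 3). The log2 fold change was 0.82 (SE 0.22, edgeR adjusted p 0.244), and its adjusted p ranged from 0.0624 to 0.670 over the 16 alternative settings. Without doxorubicin library 2 the log2 fold change was 0.59.

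Neutrophils also carry Lyz2, Itgb2, Itgam, Fcer1g and C5ar1. Of 12 neutrophil markers 11 had counts, Mpo was at 0, and their summed level was 20.2, 12.4 and 26.7 CPM in control and 21.2, 30.6 and 42.1 CPM in doxorubicin libraries, which overlapped. Lcn2, a secreted iron-siderophore carrier that other cells also make, held most of the control counts of that list, at 14.5, 10.7 and 22.2 CPM in control and 15.4, 11.5 and 11.5 CPM in doxorubicin libraries. Without Lcn2, a choice made after the values were seen, the other 10 markers with counts summed to 5.73, 1.78 and 4.54 CPM in control and 5.78, 19.0 and 30.7 CPM in doxorubicin libraries. These groups did not overlap, although doxorubicin library 1 lay next to control library 1. The receptor gene Csf3r had a level of 0.764, 0.444 and 0.852 CPM in control and 0.963, 5.62 and 6.19 CPM in doxorubicin libraries. Cxcr2 was at 0 in control and at 0.321, 2.81 and 1.77 CPM in doxorubicin libraries. S100a8 and Mmp8 also did not overlap, on 15 counts or fewer in each library. S100a9, Mmp9, Ngp, Camp, Retnlg and Elane overlapped. Of these, S100a9 had 7, 1 and 4 counts in control and 7, 14 and 44 counts in doxorubicin libraries. Elane had 0, 1 and 1 counts in control and 0 in each doxorubicin library. The part of neutrophils in these results was not tested.

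Lineage genes of macrophages had log2 fold changes close to 0, from -0.21 to 0.31, none at an unadjusted p under 0.05. Csf1r, the receptor for colony-stimulating factor 1, was at 29.0, 36.4 and 37.2 CPM in control and 31.1, 54.0 and 30.4 CPM in doxorubicin libraries (log2 fold change 0.17, SE 0.25). Spi1 was at 25.2, 12.9 and 13.3 CPM in control and 14.1, 15.6 and 14.7 CPM in doxorubicin libraries (-0.21, SE 0.31, and 0.18 without control library 1). For each of them a single library lay above the rest, doxorubicin library 2 for Csf1r and control library 1 for Spi1. Adgre1, which encodes the F4/80 antigen, was at -0.15 on that scale (SE 0.49), Aif1, a calcium-binding protein gene, at 0.14 (SE 0.43), and Cd68, a lysosomal membrane protein gene, at 0.31 (SE 0.35). The edgeR adjusted p of these 5 genes was 0.852 to 0.963. Their median was 0.14, and -0.23 without doxorubicin library 2. Cx3cr1, the fractalkine receptor gene, had 2, 3 and 0 counts in control and 4, 3 and 2 counts in doxorubicin libraries. Ms4a7 had 3, 2 and 7 counts in control and 1, 8 and 0 counts in doxorubicin libraries, and no difference was detectable for either gene at this depth.

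Of the 3 tested oxidase genes 2 were lower and 1 was higher in doxorubicin hearts, none at an unadjusted p under 0.05. Ncf1, which encodes the organising subunit p47phox, was at 103, 93.3 and 92.6 CPM in control and 64.5, 70.2 and 88.7 CPM in doxorubicin libraries. It was the only tested member below control in all 3 doxorubicin hearts, although doxorubicin library 3 was close to control library 3. The log2 fold change was -0.37 (SE 0.19, edgeR adjusted p 0.634). Cyba, the p22phox gene, was at 35.9, 16.9 and 21.3 CPM in control and 18.6, 24.6 and 9.14 CPM in doxorubicin libraries. The groups overlapped, with a log2 fold change of -0.50 (SE 0.36, edgeR adjusted p 0.754), and -0.14 without control library 1. Rac2, a small GTPase gene of blood cells, was at 29.8, 23.5 and 20.7 CPM in control and 24.4, 32.1 and 30.9 CPM in doxorubicin libraries (0.24, SE 0.24). With Cybb listed at 0, the catalytic subunit was not measured. Of 10 other genes tied to superoxide production, written into a list, 4 could be tested and 0 passed, with 0 at an unadjusted p under 0.05. The p40phox gene Ncf4 was at 2.27 to 5.33 CPM in control and 1.18 to 6.24 CPM in doxorubicin libraries, and Rac1, the broadly expressed counterpart of Rac2, differed by 0.14 on the log2 scale (SE 0.17).

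Of the 9 tested general leukocyte genes 6 were above 0 and 3 below, and Itgb2 alone reached an unadjusted p under 0.05. Cd44, a hyaluronan receptor gene active in many cell types, was at 14.1, 19.5 and 16.8 CPM in control and 24.4, 19.7 and 30.1 CPM in doxorubicin libraries. The groups did not overlap by a narrow margin, and the log2 fold change was 0.56 (SE 0.26, edgeR adjusted p 0.615). Cd53, a tetraspanin gene, Lcp1, the actin-bundling plastin gene, and Laptm5, a lysosomal protein gene, had log2 fold changes of 0.28 (SE 0.35), 0.22 (SE 0.27) and 0.17 (SE 0.30). Arhgdib, an inhibitor of small GTPases, Coro1a, an actin regulator, and Cd48, a surface ligand of lymphocytes and myeloid cells, were at -0.15 (SE 0.23), -0.19 (SE 0.30) and -0.22 (SE 0.18). The median of the 9 tested leukocyte genes was 0.17, and -0.22 without doxorubicin library 2. Lymphocytes share these genes: 9 of 11 T-cell markers had counts, Cd247 was at 0, and the list summed to 12.9 to 17.3 CPM in control and 10.9 to 13.5 CPM in doxorubicin libraries. Natural killer markers, 6 of 7 with counts, summed to 13 to 15.5 CPM and 7.06 to 11.2 CPM. B-cell markers, 6 of 7 with counts, summed to 0.889 to 4.58 CPM and 1.18 to 3.74 CPM. The part of lymphocytes in these levels was not tested.

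To set the role groups side by side, each tested gene was expressed as its log2 CPM minus the mean of the 3 control libraries, and these differences were averaged over the genes of a role in each library. The 3 resident-type genes averaged -0.85, 0.60 and 0.25 in control and 1.16, 0.87 and 1.13 in doxorubicin libraries. The 9 leukocyte genes averaged -0.06, 0.07 and -0.01 in control and 0.02, 0.46 and 0.10 in doxorubicin libraries. The 3 oxidase genes, whose median log2 fold change was -0.37 and -0.14 without control library 1, averaged 0.33, -0.19 and -0.14 in control and -0.30, 0.00 and -0.36 in doxorubicin libraries. Only the resident-type groups were free of overlap among these 3 roles. Resident-type minus leukocyte averages were -0.79, 0.52 and 0.26 in control and 1.14, 0.41 and 1.03 in doxorubicin libraries, so doxorubicin library 2 lay within the range of control. The mean difference was 0.86 in doxorubicin libraries, and 0.00 in control because each gene was centred on the control mean. On that same centring control libraries 2 and 3 averaged 0.39, which is nearer to the doxorubicin mean. Oxidase minus leukocyte averages were 0.39, -0.26 and -0.13 in control and -0.32, -0.46 and -0.46 in doxorubicin libraries, without overlap. The mean was -0.41 in doxorubicin libraries and, by the same centring, 0.00 in control. Control libraries 2 and 3 averaged -0.19. Itgb2 is among the 9 leukocyte genes, at -0.27, 0.05 and 0.22 in control and 1.23, 1.44 and 1.26 in doxorubicin libraries. The oxidase minus leukocyte difference includes that rise and was not recomputed without Itgb2, and the oxidase averages themselves overlapped. All these averages describe chosen genes and carry no test.

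**Figure D3:**
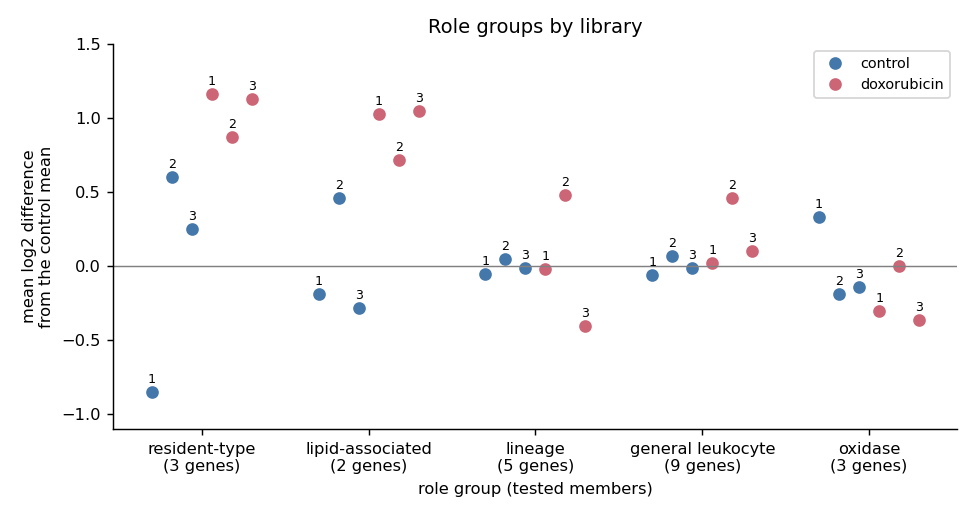
Mean log2 difference from the control mean (vertical axis) over the tested genes of 5 roles, 1 point per library, numbered by rat within the group. Resident-type points of doxorubicin hearts lie at 0.87 to 1.16 and above each control point, while leukocyte points lie at 0.02 to 0.46 and overlap with control.

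Among the receptors for antibodies and engulfment and their adaptors, Fcer1g, Fcgr1a, Clec10a and Siglec1 were highest in doxorubicin library 2. Fcer1g encodes the gamma chain that signals for Fc receptors, and it was at 20.2, 17.8 and 11.9 CPM in control and 16.7, 34.9 and 20.6 CPM in doxorubicin libraries (log2 fold change 0.55, SE 0.32). Fcgr1a, the high-affinity IgG receptor gene, was at 0.76 (SE 0.48), and Tyrobp, the adaptor DAP12 gene, at 0.12 (SE 0.37). Fcgr2b, the inhibitory IgG receptor gene, had 0, 2 and 3 counts in control and 3, 5 and 8 counts in doxorubicin libraries. Its scaled values did not overlap, but they lay at or near the smallest detectable level. Fcgr2a and Fcgr3a are close relatives, and how reads shared between these genes were counted is not given in the sources used here. Mertk, a receptor for the uptake of dying cells, was at 0.764, 3.55 and 2.56 CPM in control and 3.21, 4.37 and 5.31 CPM in doxorubicin libraries (0.91, SE 0.54, and 0.52 without control library 1). Clec10a, a galactose-binding lectin gene, was at 13, 18.7 and 14.5 CPM in control and 20.9, 34.6 and 13.9 CPM in doxorubicin libraries (0.59, SE 0.33). The edgeR adjusted p of Fcer1g, Fcgr1a, Tyrobp, Mertk and Clec10a was 0.679 to 0.957. Siglec1, the sialoadhesin gene, had 3, 5 and 11 counts in control and 4, 31 and 6 counts in doxorubicin libraries, and Msr1, a scavenger receptor gene, had 3, 1 and 1 and 4, 0 and 9 counts. Doxorubicin library 2 alone lay above control for Siglec1, and for Clec10a doxorubicin libraries 1 and 2 did.

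Among the sensing receptors, C5ar1, the receptor of complement fragment C5a, was at 0.83 on the log2 scale of the difference (SE 0.46). Cd14, the lipopolysaccharide co-receptor gene, was at 0.31 (SE 0.43) and its partner Tlr4 at 0.13 (SE 0.53). Their edgeR adjusted p was 0.678 to 0.972. Tlr2, a receptor for bacterial lipoproteins, was below the filter with 8, 9 and 7 counts in control and 8, 11 and 9 counts in doxorubicin libraries, so no difference was detectable.

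Members fell into patterns by library. Doxorubicin library 2 held the highest value of 17 of the 32 tested members, and each of the other doxorubicin libraries of 3 or 4. Control library 1 held the lowest value of 12 members and the highest of 6. Without control library 1 the log2 fold change was 0.07 for Csf1r, -0.41 for Adgre1, 0.24 for Aif1, 0.61 for Tyrobp and 0.65 for Cd14. It was -0.18 for Tlr4, 0.41 for Rac2, 0.0019 for Lcp1, 0.11 for Coro1a and -0.02 for Itgam. Csf1r, Laptm5, Clec10a, Fcer1g, Fcgr1a and Lyz2 were highest in doxorubicin library 2. Gpnmb, Cd163, Lgals3, Cd44 and C5ar1 were instead highest in doxorubicin library 1 or 3. In doxorubicin library 3 Adgre1 (2.95 CPM), Aif1 (3.83 CPM), Arhgdib (37.1 CPM) and Cyba (9.14 CPM) were at their lowest. The summed level of all members was 818, 745 and 687 CPM in control and 755, 1020 and 825 CPM in doxorubicin libraries, and the groups overlapped. Without Pf4, described below, the sum was 735, 726 and 678 CPM in control and 741, 1010 and 807 CPM in doxorubicin libraries. Those groups did not overlap, by a narrow margin. Without Lyz2 instead it was 702, 657 and 599 CPM against 629, 792 and 661 CPM, which overlapped.

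**Figure D4:**
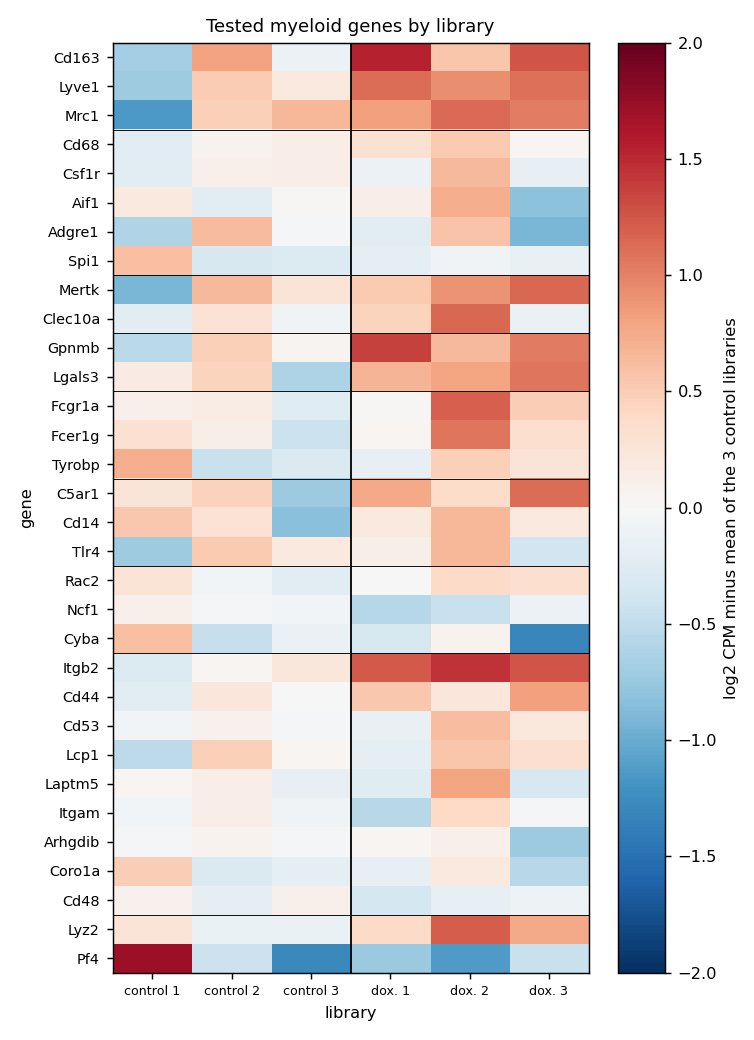
Log2 CPM minus the mean of the 3 control libraries (colour) for each tested member (rows, grouped by role) in each library (columns; dox., doxorubicin). Doxorubicin library 2 holds the highest value of 17 members, and Itgb2, Lyve1 and Gpnmb are red in all 3 doxorubicin columns.

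Pf4, the platelet factor 4 gene, which resident macrophages can also transcribe, differed between groups mainly through 1 library. It was at 82.5, 18.2 and 9.66 CPM in control and 14.4, 10.9 and 18.0 CPM in doxorubicin libraries. With all libraries the log2 fold change was -1.33 (SE 0.80, edgeR adjusted p 0.727), and 0.09 without control library 1. That library also had the highest summed red cell markers, 7430 CPM against 2040 and 2570 CPM in control libraries 2 and 3 and 701 to 2730 CPM in doxorubicin libraries. Of that list Hbe1, Hbe2 and Alas2 were at 0 in all libraries. Its summed platelet markers were 12.6 CPM, against 1.14 to 6.48 CPM in the other 5 libraries, on 4 to 33 counts per library, with Gp1bb at 0 in all. Control library 1 was thus highest for Pf4 and for the sums of red cell and platelet markers. Of its 33 platelet counts 17 were of Treml1. Ppbp and Gp9 were also highest there, whereas Gp1ba, Gp5 and Itgb3 were highest in doxorubicin libraries. Slc4a1 of the red cell list was highest in control library 3, at 52.3 CPM against 39.3 CPM in control library 1. Among the other 5 libraries, doxorubicin library 1 had the lowest red cell markers and more Pf4 than control library 3. Platelet markers were at 6.22 and 1.14 CPM in control libraries 2 and 3. They were at 6.10, 2.18 and 6.48 CPM in doxorubicin libraries 1, 2 and 3. Control library 3 and doxorubicin library 2, lowest of these 5 for platelet markers, were also lowest for Pf4. The part of blood cells in the level of Pf4 was not tested.

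**Figure D5:**
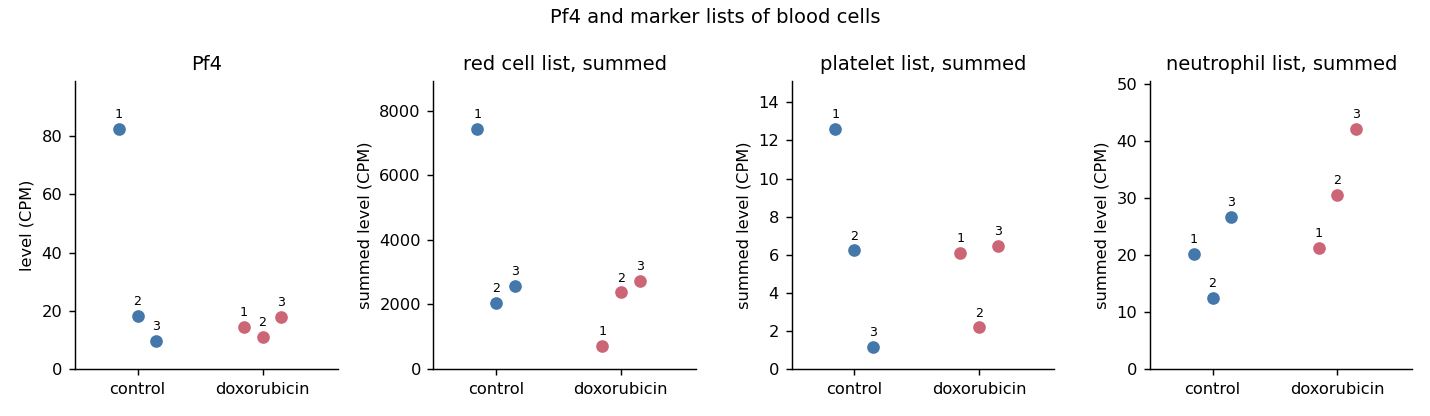
Level of Pf4 and summed level of 3 marker lists of blood cells (vertical axes, CPM) in each library, numbered by rat within the group. Control library 1 is highest for Pf4 (82.5 CPM), red cell and platelet markers, whereas neutrophil markers are highest in doxorubicin library 3 (42.1 CPM).

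Beyond the members, 85 genes of myeloid growth, signalling, transcription and function were listed, of which 82 were in the table, 14 were at 0 in all libraries and 43 were tested. None of the 43 passed the adjusted threshold in edgeR's test, and at an unadjusted p under 0.05 there were 3 higher and 1 lower, 9.30% of the 43 against 8.10% of all tested genes. Csf1, the ligand of the Csf1r receptor, was at 37.0, 33.3 and 28.4 CPM in control and 46.2, 39.9 and 43.9 CPM in doxorubicin libraries. The groups did not overlap, with a log2 fold change of 0.40 (SE 0.21, edgeR adjusted p 0.644). Il34, the other ligand of that receptor, was at 0.01 (SE 0.30), and Gas6, a ligand of Mertk, at -0.01 (SE 0.18). The complement genes C1qa, C1qb and C1qc, abundant in tissue macrophages, had log2 fold changes of 0.39 (SE 0.25), 0.41 (SE 0.26) and 0.35 (SE 0.26), and each was highest in doxorubicin library 2.

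The smallest p-values of the listed genes belonged to Spp1 and Card9. Spp1 encodes osteopontin, a secreted matrix protein of macrophages and other cells. It was at 8.02, 1.78 and 7.10 CPM in control and 35.0, 9.98 and 32.4 CPM in doxorubicin libraries. Like Gpnmb and Cd163, it was lower in doxorubicin library 2 than in the other doxorubicin libraries. Doxorubicin exceeded control by a log2 fold change of 2.14 (SE 0.50, edgeR adjusted p 0.158). Card9, an adaptor for fungal lectin receptors, was at 17.2, 50.6 and 19.6 CPM in control and 10.9, 10.6 and 7.96 CPM in doxorubicin libraries. Its log2 fold change was -1.55 (SE 0.39, edgeR adjusted p 0.182), without overlap. Arhgap30, a GTPase-activating protein gene, was at 1.11 (SE 0.43, edgeR adjusted p 0.498) and F13a1, the coagulation factor XIII chain of macrophages, at 0.84 (SE 0.35, edgeR adjusted p 0.544). The phosphatase gene Ptpn6 (0.52), the nucleotide receptor gene P2ry6 (0.84), the repressor gene Bcl6 (-0.65), the interferon regulatory factor genes Irf8 (0.57) and Irf5 (0.45), and the receptor genes Csf2ra (-0.38) and Tyro3 (-0.23) were next within their lists by p. The smallest edgeR adjusted p of these 7 was 0.679, for P2ry6.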

How the data were processed

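mRNA libraries from 6 hearts were sequenced on an Illumina NovaSeq instrument, per the labels. Values deposited by the authors are unnormalized counts of reads for each gene symbol. FastQC, Trimmomatic, STAR and HTSeq and the build mRatBN7.2 are named, without order, in the submitters' processing notes. Annotation, counting mode and use of strand are not given in the sources used here.

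The 18473 rows were summed per symbol, giving 17487 symbols. Doxorubicin was tested against control with edgeR 4.0.16 (R 4.3.3): TMM, filterByExpr (minimum count 10, minimum total 15), robust quasi-likelihood F test, Benjamini-Hochberg adjustment over 9205 symbols, threshold 0.05. The standard error was the absolute log2 fold change over the square root of F. Log2 CPM used a prior count of 2. The script was tested on simulated data. Replicates differed beyond sampling noise (chi-square per degree of freedom at least 4.28). Python 3.11.15, pandas 2.3.3 and matplotlib 3.10.9 handled tables and figures.

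The members and gene lists were chosen with earlier results of these data known. All members are named. Values per library are given for members at an unadjusted p under 0.05 or without overlap, resident-type, oxidase and filtered members, and some others chosen after their values were seen. Of other lists, ligands, oxidase partners, C1q genes and the 3 smallest p-values per list are named, except 1 gene that is not reported here, with a few more chosen after their values were seen. Alternatives were other scaling factors, filters and tests (DESeq2 1.42.0, limma 3.58.1 voom), the replicate block, separate rows, and leaving out each library.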

Additional observations from a re-analysis of the deposited data

How the results depend on the processing

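Against 0 members past the adjusted threshold, each of the 16 alternatives also gave 0. The members at an unadjusted p under 0.05 numbered 5 to 8 and those higher in doxorubicin 18 to 29, against 7 and 24, and the median log2 fold change was 0.10 to 0.40 against 0.26. Under library size alone the median over all genes was 0.10, against 0.02. Over all genes, against 5 calls, no filter gave 61, DESeq2 74, non-robust dispersion 1, library size only 0 and voom 0, and leaving out 1 library gave 0 to 35. The replicate block gave 13, with 0 members among them, and the replicate numbers did not pair the animals (correlations of deviations -0.185 to 0.0211, no library correlating best with its own number). Among the other myeloid lists, against 0 calls, no filter gave 1 (Card9), DESeq2 2 (Card9 and Spp1), the replicate block 1 (Spp1) and leaving out 1 library 0 to 1.

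Of 512 member values under alternatives 22 changed sign, in 12 members, none past the threshold. Itgam was -0.0014 under DESeq2, -0.07 under voom and -0.05 under the replicate block, and Aif1 was -0.03 under voom, as was the lineage median. Leaving out 1 library gave ranges of -0.14 to 0.32 for Csf1r, -0.37 to 0.18 for Spi1, -0.66 to 0.23 for Adgre1, -0.31 to 0.49 for Aif1, -0.07 to 0.61 for Tyrobp, -0.06 to 0.65 for Cd14, -0.23 to 0.43 for Tlr4, -0.28 to 0.38 for Laptm5, -0.39 to 0.11 for Coro1a, -0.28 to 0.08 for Arhgdib, -0.29 to 0.25 for Itgam and -1.81 to 0.09 for Pf4. The leukocyte median ranged from -0.22 to 0.35 and the lineage median from -0.23 to 0.32. The cause was not tested. Low counts limit precision. The smallest detectable level of 3 counts covers counting error only, whereas the SEs and SDs include variation between rats.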

Other observations

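Several genes that macrophages are known to transcribe strongly were listed at 0 or nearly so. Besides Ptprc and Cybb, the kinase genes Lyn and Btk, the cytoskeletal regulator Was and the transcription factor genes Cebpa and Cebpb were at 0 in all 6 libraries. Apoe, a lipid carrier gene, had 1 count in control library 3, 2 counts in doxorubicin library 1 and 0 in the other 4 libraries. Like Ptprc, Apoe stood on 5 rows of the table. In the same libraries Csf1r had 76 to 173 counts and Lyz2 197 to 722. These levels are as deposited, and the cause was not tested.

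Mast cell markers were also measured, with 7 of 7 listed genes in the table and none at 0. Their summed level was 29.4, 32.4 and 27.3 CPM in control and 13.8, 24.0 and 22.7 CPM in doxorubicin libraries, lower in each doxorubicin heart. The markers differed in direction. The 3 tested ones, Tpsb2, Mcpt1l1 and Kit, were lower. Of those below the filter, Tpsab1 was lower and Ms4a2, Cpa3 and Hdc were higher in the fit without it. Ms4a2, Cpa3 and Hdc had 8 counts or fewer in each library. The tryptase gene Tpsb2 was at 16.0, 9.77 and 5.68 CPM in control and 2.57, 6.24 and 4.72 CPM in doxorubicin libraries, which overlapped (log2 fold change -1.19, SE 0.46, edgeR adjusted p 0.499). Dendritic cell markers, 6 of 7 with counts, summed to 11.5 to 22.2 CPM in control and 16.2 to 25 CPM in doxorubicin libraries.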
